A study of Saccharomyces cerevisiae with 15 samples.

Results

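Yeast that carried the dominant mutant allele gcn5-F221A behind the TEF5 promoter (promoter strength 0.95) was set against yeast with the same allele behind the weaker TEF11 promoter (promoter strength 0.68). The arrays were chosen by their promoter strength labels, which gave 6 of the 15 arrays of the series, 3 biological replicates at each strength. In both strains the host was S288C with its native GCN5 gene still in place, and the allele sat on a centromeric plasmid with G418 resistance, so that each strength was 1 plasmid construct and both proteins were made together. The other 9 arrays held strength 0.32 and 2 strains with a control plasmid, wild-type and gcn5 null, with 3 arrays each. All strains were grown under G418 (200 μg/mL) in minimal medium whose glucose was 20 g/L, and RNA was taken at an optical density of 0.4 to 0.5.

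Gcn5 is the catalytic subunit of the SAGA and ADA complexes of budding yeast, and it acetylates lysines in the tail of histone H3, mostly at promoters. The F221A protein lacks that activity but can still take the place of the native protein, so a stronger promoter is meant to leave less active Gcn5 in the complexes. The question of this step is which transcripts still differed when the allele was raised from an already high strength to the top of the series. The allele is shown here by its mutagenic primer from the study's primer table, assigned to F221A by reading its codons, with the alanine codon that replaces the phenylalanine codon in capitals.
gcn5-F221A forward primer: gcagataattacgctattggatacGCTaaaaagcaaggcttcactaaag

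GCN5 itself (YGR252W, chromosome VII, 996869 to 998188 in assembly R64) showed the step in every array. Its signal, on the log2 scale of the deposited values, was 13.20, 13.11 and 13.08 at 0.95, against 12.07, 11.88 and 11.76 at 0.68. The lowest array at 0.95 was above the highest at 0.68, and the difference was 1.23 (SE 0.08), or 2.34-fold (adjusted p = 9.69e-06, limma). Mean GCN5 signals of the series were 8.92 (wild-type), 11.50 (0.32), 11.90 (0.68) and 13.13 (0.95), and the gcn5 null strain had 5.78. The probe set reads native and mutant transcripts together, so the labels hold, but the ratio of mutant to native message is not given by it.

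**Figure D1:**
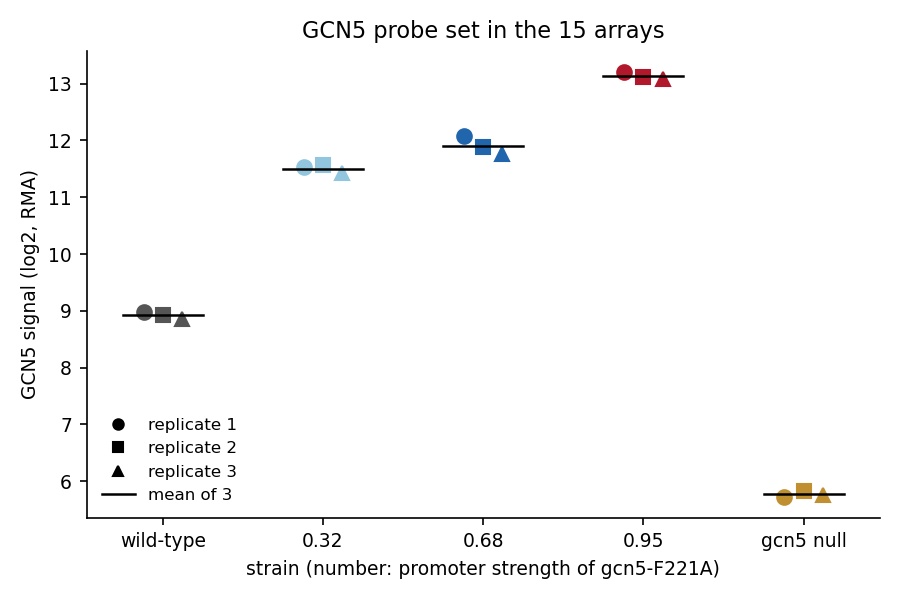
GCN5 signal (log2) in each of the 15 arrays, by strain, with a bar at the mean of 3. The 3 arrays at 0.95 lie between 13.08 and 13.20, above the 3 arrays at 0.68, which lie between 11.76 and 12.07.

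The arrays at 0.68 were less alike than those at 0.95. Over all S. cerevisiae genes, Pearson's r between replicates was 0.9879 to 0.997 at 0.95 and 0.9773 to 0.9878 at 0.68, and the mean SD per gene was 0.145 at 0.95 and 0.229 at 0.68. Replicate 1 at 0.68 had correlations of 0.9773 and 0.9843 with its own replicates, below its 0.9929 with replicate 3 at 0.95. Replicate 2 at 0.68 likewise had at most 0.9878 with its own replicates and 0.9891 with replicate 1 at 0.95. Of the genes that differed in this step, replicate 1 was the array at 0.68 nearest to the mean at 0.95 in 205. The difference between 5′ and 3′ probe sets of control genes, a measure of RNA integrity and labelling length, was -3.44, -3.14 and -2.76 at 0.95 and -2.69, -3.47 and -2.66 at 0.68, so that the strengths overlapped in it. The main counts below are therefore given with all arrays and also with arrays left out.

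Between the strengths, 272 of 5449 genes differed (4.99%, limma fitted to all 15 arrays, adjusted p under 0.05), 135 higher at 0.95 (2.48%) and 137 lower (2.51%). The 3 arrays at 0.95 did not overlap those at 0.68 in any of the 272, as in 1054 of all genes (19.3%). The changes were small: the median size among the 272 was 0.57 on the log2 scale, and 36 genes (0.661%) passed the test with more than a 2-fold difference. Of these large changes 6 were rises (0.11%) and 30 were falls (0.551%). The falls reached -2.53 and the rises 2.08, while the median over all genes was 0.02. Without replicate 1 at 0.68 the count was 898, of which 504 were higher, and 271 of the 272 were among them. Without replicate 3 at 0.68 it was 79, with 78 of the 272 among them. The calls rest on the spread shared with the other strains: limma fitted to the 6 arrays alone called 0 genes, with 707 at an unadjusted p under 0.05, and weights for each strain gave 130. In total RNA of a culture, fewer cells of a kind and less transcript per cell cannot be told apart.

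**Figure D2:**
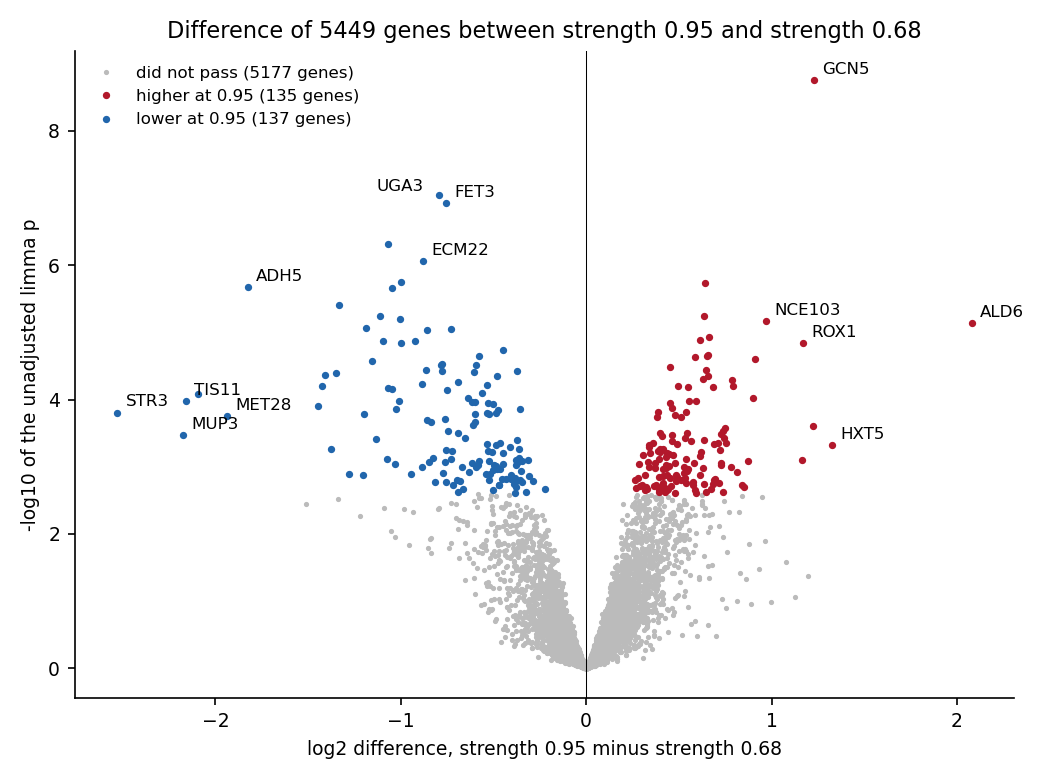
Log2 difference of each of 5449 genes (0.95 minus 0.68) against −log10 of its unadjusted limma p, with the 135 genes that were higher at 0.95 and the 137 that were lower in colour. STR3 (-2.53) and ALD6 (2.08) lie at the ends, and GCN5 has the smallest p.

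The largest rise was that of ALD6, the cytosolic aldehyde dehydrogenase that makes acetate from acetaldehyde. Its signal was 11.28, 11.51 and 11.61 at 0.95, against 10.32, 8.89 and 8.94 at 0.68, a difference of 2.08 (SE 0.29, 4.23-fold, adjusted p = 0.00265). All arrays at 0.95 were higher, and replicate 1 at 0.68 lay more than 1 log2 unit above the other arrays of that strength. ALD4, the mitochondrial enzyme of the same reaction, rose as well, with 13.05, 13.18 and 13.06 at 0.95 and 12.04, 12.53 and 12.55 at 0.68 (0.73, adjusted p = 0.0294), though not without replicate 3 at 0.68 (adjusted p = 0.0610). ADH5, an alcohol dehydrogenase, went the other way, with 9.29, 9.19 and 9.03 at 0.95 and 10.52, 11.13 and 11.32 at 0.68. It fell by 1.82 on the log2 scale (SE 0.23, adjusted p = 0.00134), and the strengths were separated by more than the range within either. Of the 19 measured genes of alcohol and acetate metabolism, these 3 passed the test (15.8%, against 4.99% of all genes).

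HXT5, a hexose transporter made in slowly growing cells, was at 9.41, 9.47 and 9.49 at 0.95 and at 7.60, 8.61 and 8.19 at 0.68 (1.32, SE 0.29, adjusted p = 0.0215). Here replicate 1 at 0.68 was the array farthest from 0.95, not the nearest. The call of HXT5 was kept in 2 of the 6 fits that left out an array, and was lost without replicate 3 at 0.68 (adjusted p = 0.0774). ROX1, the repressor of hypoxic genes, rose by 1.17 (SE 0.17, adjusted p = 0.0033), with 9.33, 9.39 and 9.43 at 0.95 against 8.60, 7.93 and 8.09 at 0.68. NCE103, which encodes carbonic anhydrase, had 12.83, 13.14 and 13.21 at 0.95 and 12.20, 12.02 and 12.05 at 0.68 (0.97, SE 0.13, adjusted p = 0.00265). Both genes separated the strengths in all arrays and passed the test when any of the 6 arrays was left out.

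ABF1, an essential DNA binding protein of promoters, replication origins and silencers, had 9.21, 9.26 and 9.16 at 0.95 and 8.69, 8.10 and 8.10 at 0.68 (0.91, adjusted p = 0.00456). GNP1, a glutamine permease, had 10.04, 10.08 and 10.14 at 0.95 and 9.82, 8.47 and 8.47 at 0.68 (1.17, adjusted p = 0.0284). In GNP1 replicate 1 at 0.68 was close to the arrays at 0.95, and the call was kept in only 1 of the 6 fits that left out an array. The other rises among the 10 largest were those of GFD2 (1.23), LCP5 (0.90) and YOR338W (0.87), which were kept in 3, 6 and 1 of those fits. Among the 10 largest falls were also YKL068W-A (-2.09, limma adjusted p = 0.0077) and TMT1 (-1.42, limma adjusted p = 0.0066). Both were kept in all 6 fits.

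**Figure D3:**
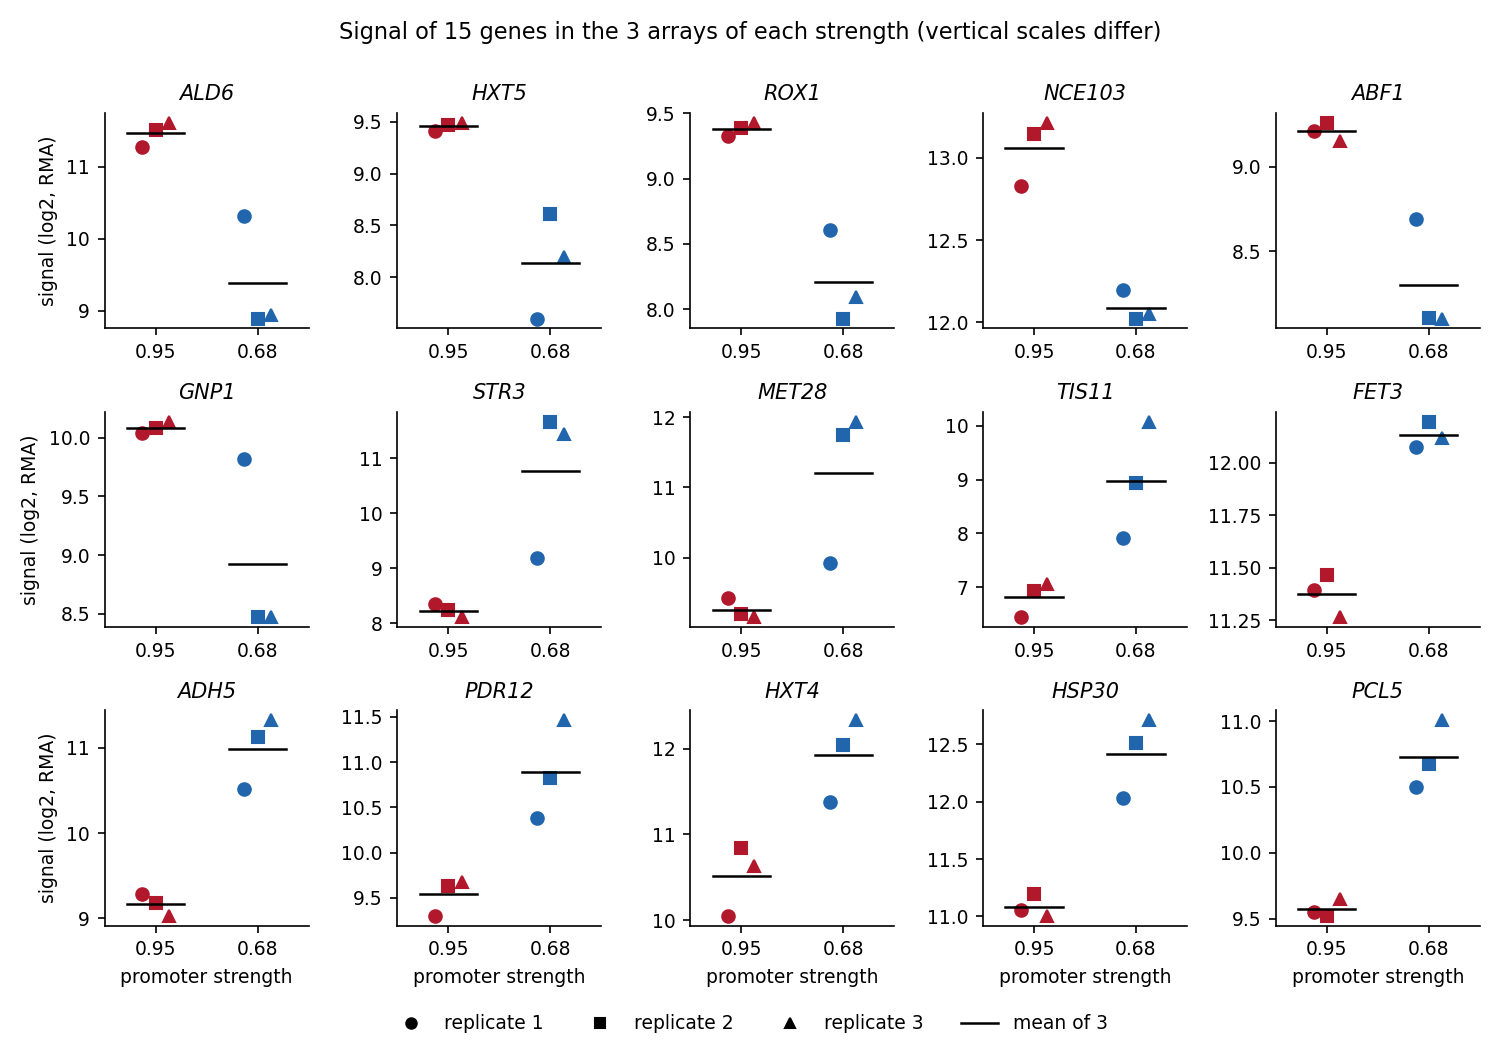
Signal (log2) of 15 genes in the 3 arrays at 0.95 and the 3 arrays at 0.68, with a marker for each replicate and a bar at each mean. No gene shown overlaps between strengths. Replicate 1 at 0.68 (circles) is the nearest to 0.95 in most panels, as for ALD6 (10.32) and STR3 (9.18), and the farthest for HXT5 (7.60).

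Genes of sulfate assimilation and methionine synthesis gave the largest falls. Of 33 measured members 8 fell and none rose (24.2%, against 4.99% of all genes). The median difference was -0.32 against 0.02 over all genes. STR3, which encodes a cystathionine beta-lyase, was at 8.34, 8.24 and 8.11 at 0.95 and at 9.18, 11.67 and 11.43 at 0.68. It fell by 2.53 on the log2 scale (SE 0.48, adjusted p = 0.0108). MUP3, a low-affinity methionine permease, had 8.55, 8.57 and 8.38 at 0.95 and 9.13, 11.53 and 11.36 at 0.68 (-2.17, adjusted p = 0.018). Replicate 1 at 0.68 lay over 2 log2 units below the other arrays of its strength in both genes, though still above every array at 0.95.

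MET28, a DNA binding cofactor of the sulfur regulator Met4, had 9.43, 9.20 and 9.15 at 0.95 and 9.92, 11.74 and 11.94 at 0.68 (-1.94, adjusted p = 0.0114). MET2, the homoserine O-acetyltransferase of methionine synthesis, had 10.11, 9.80 and 9.74 at 0.95 and 10.27, 11.68 and 11.83 at 0.68 (-1.37, adjusted p = 0.0236). The mean signal of the 33 genes was 10.50, 10.38 and 10.39 at 0.95 and 10.63, 11.20 and 11.31 at 0.68. The high values at 0.68 were those of replicates 2 and 3, and replicate 1 was at the level of wild-type (10.60, 10.64 and 10.70). Without replicate 1 at 0.68, 21 of the 33 fell, and without replicate 3 none passed. Those fits called 898 and 79 of all 5449 genes. Leaving out replicate 2 at 0.68 gave 4, and replicates 1, 2 or 3 at 0.95 gave 2, 2 and 3. STR3 and MET28 were kept in 5 of the 6 fits that left out an array, and MUP3 and MET2 in 1. The mean of the list in the gcn5 null arrays was 10.96, 10.98 and 10.80.

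Iron and copper uptake genes fell too. Of 34 measured members 9 fell (26.5%, against 4.99% of all genes) and none rose, with a median of -0.14. When each of the 6 arrays was left out in turn 5 to 12 members passed. Without both replicate 1 at 0.95 and replicate 2 at 0.68, 1 passed. TIS11, an RNA binding protein that is made when iron is short and degrades messages of iron-using proteins, had 6.45, 6.93 and 7.06 at 0.95 and 7.92, 8.94 and 10.08 at 0.68. It fell by 2.16 on the log2 scale (SE 0.39, adjusted p = 0.00891), and its 3 arrays at 0.68 were spread over more than 2 log2 units. CCC2, the copper pump that loads the multicopper oxidase Fet3, had 9.16, 9.11 and 9.17 at 0.95 and 9.47, 10.19 and 10.35 at 0.68 (-0.86, adjusted p = 0.0124). FRE3, a reductase of iron siderophores, had a difference of -0.77 (adjusted p = 0.0344), and was kept in 1 of the 6 fits that left out an array.

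FET3, the multicopper ferroxidase itself, is added here after its values were seen. It had 11.40, 11.47 and 11.26 at 0.95 and 12.08, 12.20 and 12.12 at 0.68, a difference of -0.76 (SE 0.07, adjusted p = 2.18e-04). In this gene replicate 1 at 0.68 was like the other arrays of its strength. The mean of FET3 in wild-type was 12.11 and at 0.32 it was 11.98, so that the level at 0.68 was that of wild-type, and the level at 0.95 was near that of the gcn5 null strain (11.29). The mean signal of all 34 iron and copper genes at 0.95 was 8.77, 8.73 and 8.69, below each array at 0.68 (8.85, 9.04 and 9.03).

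Zinc genes followed the same direction in 5 of 23 measured members (21.7%, against 4.99% of all genes), with none higher and a median of -0.07. FET4, a low-affinity transporter of iron, zinc and copper, had 9.35, 9.57 and 9.54 at 0.95 and 10.29, 10.44 and 10.57 at 0.68 (-0.94, adjusted p = 0.0354). ZRT1, the high-affinity zinc transporter, had 9.37, 9.32 and 9.06 at 0.95 and 10.36, 9.72 and 10.11 at 0.68 (-0.81, adjusted p = 0.0404). IZH4, a membrane protein of zinc homeostasis, had 7.21, 7.14 and 7.32 at 0.95 and 8.31, 7.91 and 8.10 at 0.68 (-0.88, adjusted p = 0.0066). In these 3 genes replicate 1 at 0.68 did not stand with the arrays at 0.95. Of the 6 fits that left out an array, FET4 and ZRT1 were each kept in 1 and IZH4 in 6. ZRT1 was a graded gene, with means of 11.08 in wild-type, 10.23 at 0.32, 10.06 at 0.68 and 9.25 at 0.95. ZRT1 missed the test without replicate 1 at 0.68 (adjusted p = 0.0593), and 1 member of the list passed without replicate 3 at 0.68 or without any array at 0.95.

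Amino acid biosynthesis genes, most of them targets of the activator Gcn4, fell in 11 of 68 measured members and rose in none. That share was 16.2%, against 4.99% of all genes. The median was -0.17, and when each of the 6 arrays was left out 3 to 16 members passed. ARO3, the first enzyme of aromatic amino acid synthesis, had 10.34, 10.65 and 10.86 at 0.95 and 11.26, 11.32 and 11.62 at 0.68 (-0.78, SE 0.13, adjusted p = 0.005). ARG1, argininosuccinate synthetase, had 11.31, 11.40 and 11.41 at 0.95 and 11.95, 12.11 and 12.25 at 0.68 (-0.73, SE 0.10, adjusted p = 0.00282). Both kept their call when any of the 6 arrays was left out, and no array of theirs stood apart. ARG7, an acetyltransferase of ornithine synthesis, had a difference of -0.62 (adjusted p = 0.00891). The wild-type means of ARO3 (10.96), ARG1 (11.66) and ARG7 (11.02) lay between the strengths in each case. PCL5, a cyclin that marks Gcn4 for degradation, fell 2.23-fold, with 9.55, 9.52 and 9.65 at 0.95 and 10.50, 10.68 and 11.01 at 0.68 (adjusted p = 0.00465).

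Of 46 measured genes of nitrogen catabolite control and amino acid permeases, 6 fell and 1, GNP1, rose (median -0.17). The share that passed was 15.2%, against 4.99% of all genes. BAP3, a permease of branched-chain amino acids, had 5.29, 4.97 and 5.05 at 0.95 and 5.70, 6.78 and 7.15 at 0.68 (-1.44, SE 0.27, adjusted p = 0.00961). The arrays of BAP3 at 0.95 lay at or near 5.18, the 95th percentile of probe sets for fission yeast on the same array, which have no target in these cells. DUR3, a transporter of urea and polyamines, had 8.79, 8.36 and 8.44 at 0.95 and 9.04, 9.99 and 9.96 at 0.68 (-1.13, adjusted p = 0.0196). The call of DUR3 was kept in 2 of the 6 fits that left out an array. UGA3, the activator of GABA use, is also added after its values were seen. UGA3 had 8.23, 8.26 and 8.34 at 0.95 and 9.02, 9.04 and 9.16 at 0.68, a difference of -0.80 (SE 0.07, adjusted p = 2.18e-04), and all arrays of a strength lay close together. The count of 7 for the list became 16 without replicate 1 at 0.68 and 2 without replicate 3.

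Of 155 measured ribosome biogenesis genes 16 rose and 1, REA1, fell, with a median of 0.28. LCP5, a factor of the small subunit processome, had 10.66, 10.56 and 10.60 at 0.95 and 10.21, 9.57 and 9.35 at 0.68 (0.90, SE 0.16, adjusted p = 0.00844). TOD6, which is in the list but encodes a repressor of ribosome biogenesis genes, had 9.43, 9.49 and 9.62 at 0.95 and 9.32, 8.31 and 8.35 at 0.68 (0.85, adjusted p = 0.044). DBP8, an RNA helicase of the small subunit, had 10.50, 10.39 and 10.43 at 0.95 and 10.25, 9.50 and 9.23 at 0.68 (0.78, adjusted p = 0.0305). In all 3 genes replicate 1 at 0.68 lay closer to the arrays at 0.95 than to its own replicates.

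The whole list showed the same division of arrays. Its mean was 10.82, 10.94 and 11.05 at 0.95 and 11.12, 10.43 and 10.38 at 0.68, so that replicate 1 at 0.68 was above every array at 0.95 and the list's mean overlapped between strengths. Without that array 99 of 155 members rose and 1 fell, with a median of 0.55, but without any single one of the other 5 arrays 1 to 3 members passed. The fit without replicate 1 at 0.68 called 898 of all 5449 genes, 504 of them higher. The means of wild-type (11.004, 11.10 and 11.05) and of strength 0.32 (11.19, 11.10 and 10.93) were near those at 0.95, and those of the gcn5 null strain (10.39, 10.35 and 10.41) were near replicates 2 and 3 at 0.68. RNA polymerase I and III subunits had 0 of 24 members past the test (median 0.17), but 7 rose without replicate 1 at 0.68 (median 0.35). The cytoplasmic ribosomal proteins had 0 of 128 past the test with all arrays or without that one (median 0.02).

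**Figure D4:**
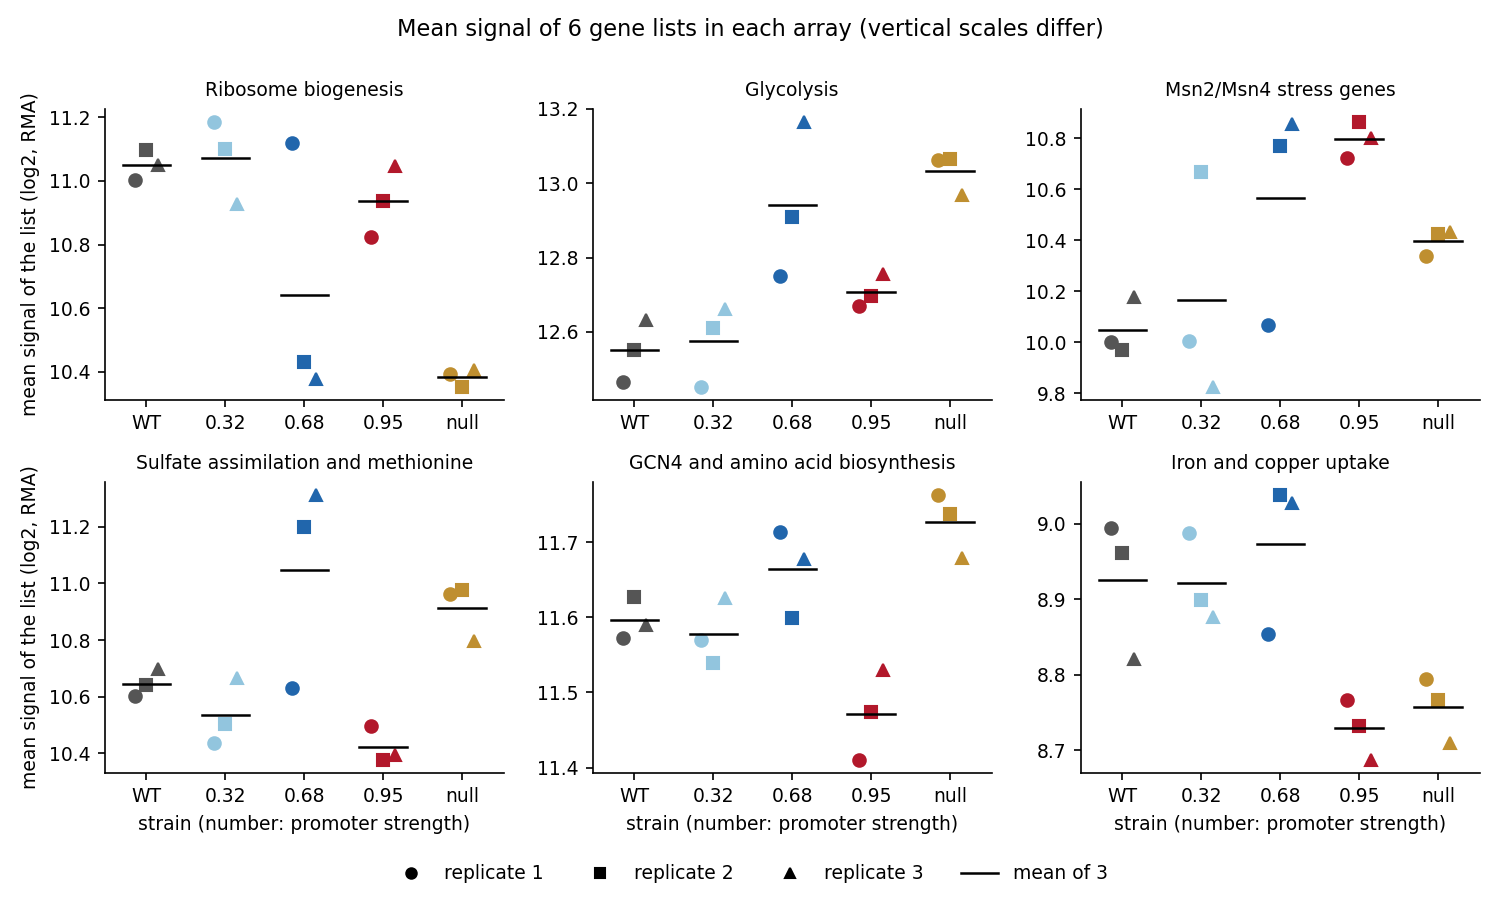
Mean signal (log2) of 6 gene lists in each of the 15 arrays, by strain in order of promoter strength with the null strain last, and a bar at the mean of 3. In ribosome biogenesis replicate 1 at 0.68 (11.12) lies apart from replicates 2 and 3 (10.43 and 10.38), and in sulfate assimilation it lies at 10.63 below them (11.20 and 11.31).

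Glucose metabolism fell in part. Of 18 measured glycolysis genes 4 fell and none rose (22.2%, against 4.99% of all genes, median -0.18). ENO1, an enolase, had 12.77, 12.79 and 12.88 at 0.95 and 13.05, 13.51 and 13.63 at 0.68 (-0.58, adjusted p = 0.0301). HXK2, the main hexokinase and a factor in glucose repression, had 11.80, 11.91 and 11.99 at 0.95 and 12.38, 12.21 and 12.46 at 0.68 (-0.45, adjusted p = 0.0248). PFK1, a subunit of phosphofructokinase, had a difference of -0.39 (adjusted p = 0.0416). Strengths did not overlap in these genes, but all differences were below 2-fold, and without replicate 3 at 0.68 or replicates 1 or 2 at 0.95 none of the list passed, while 7 fell without replicate 1 at 0.68.

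HXT4, a hexose transporter induced by low glucose, fell by 1.41 on the log2 scale, with 10.05, 10.85 and 10.64 at 0.95 and 11.38, 12.05 and 12.33 at 0.68 (adjusted p = 0.00553). SNF3, the sensor of low glucose, had 8.08, 7.98 and 7.70 at 0.95 and 8.15, 8.998 and 8.62 at 0.68 (-0.66, adjusted p = 0.0453), with replicate 1 at 0.68 only just above the arrays at 0.95. Of 22 measured hexose transporter and sensor genes 3 fell and 1, HXT5, rose (18.2%, against 4.99% of all genes). When each of the 6 arrays was left out 1 to 4 passed. HXT genes are close in sequence, so part of a signal may come from another member. The maltose genes MAL31 (-0.66, adjusted p = 0.0192) and MAL11 (-0.47, adjusted p = 0.0423) were the 2 of 9 that passed (22.2%, against 4.99% of all genes). They were kept in 2 and 1 of the 6 fits that left out an array. MAL31, the maltose permease, was graded, at 8.42 in wild-type, 7.95 at 0.32, 7.62 at 0.68 and 6.96 at 0.95.

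**Figure D5:**
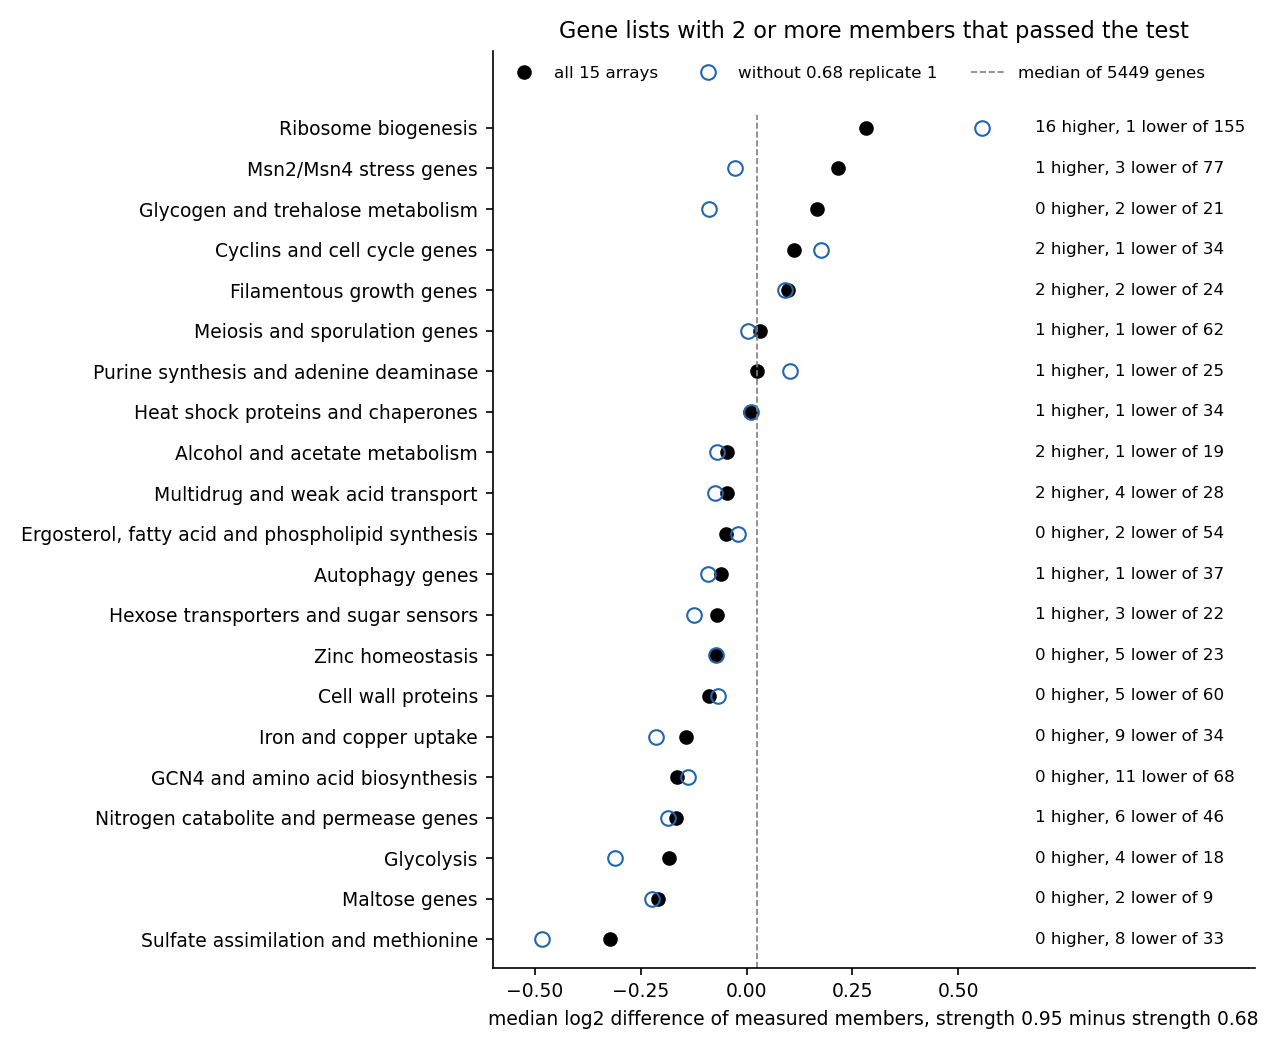
Median log2 difference (0.95 minus 0.68) of the measured members of those of the 45 lists that had at least 2 members past the test, with all 15 arrays (filled) and without replicate 1 at 0.68 (open), beside the counts. Of the lists drawn, sulfate assimilation is lowest (-0.32) and ribosome biogenesis highest (0.28). Stress and glycogen genes change sign when that array is left out (0.21 and -0.03 for stress genes).

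Stress genes did not move together. Of 77 measured targets of the stress activators Msn2 and Msn4, 3 fell and 1, ALD4, rose (5.19%, against 4.99% of all genes). Their median difference was 0.21, and it became -0.03 without replicate 1 at 0.68. When each of the 6 arrays was left out 2 to 8 stress genes passed. HSP30, a plasma membrane protein induced by heat and weak acid, fell by 1.33 on the log2 scale, with 11.06, 11.19 and 11.004 at 0.95 and 12.03, 12.52 and 12.71 at 0.68 (SE 0.17, adjusted p = 0.00216). GSY1, a glycogen synthase, had 7.89, 8.19 and 7.84 at 0.95 and 8.67, 8.92 and 9.42 at 0.68 (-1.03, adjusted p = 0.0103). GLG1, the primer protein of glycogen, had 8.16, 8.11 and 7.94 at 0.95 and 8.87, 9.28 and 9.39 at 0.68 (-1.11, adjusted p = 0.00263). HSP30, GSY1 and GLG1 kept their calls without any of the 6 arrays. GSY1 and GLG1 were the 2 of 21 measured glycogen and trehalose genes that passed (9.52%). The mean of the stress list at 0.68 was 10.07 in replicate 1, within the wild-type range of 9.97 to 10.18, and 10.77 and 10.86 in replicates 2 and 3, near the arrays at 0.95 (10.72, 10.86 and 10.80).

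Transporters of drugs and weak acids moved both ways. PDR12, the pump for weak organic acids, had 9.30, 9.64 and 9.68 at 0.95 and 10.38, 10.82 and 11.46 at 0.68, a fall by 1.35 on the log2 scale (SE 0.22, adjusted p = 0.00529). TPO4, a polyamine exporter, had a difference of -0.87 (adjusted p = 0.00522) and QDR2, an exporter of monovalent cations and quinidine, one of -0.69 (adjusted p = 0.0175). The ABC transporters PDR5 and SNQ2 were the 2 of 28 measured members that rose, and 4 fell (21.4% passed, against 4.99% of all genes). When each of the 6 arrays was left out 3 to 9 passed, and SNQ2 was kept in 2 of those fits. PDR5 is added after its values were seen, with 11.75, 11.85 and 11.87 at 0.95 and 11.49, 11.15 and 11.18 at 0.68 (0.55, adjusted p = 0.0066).

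Few genes of lipid synthesis passed. OLE1, the only fatty acid desaturase of this yeast, had 10.47, 10.99 and 11.55 at 0.95 and 12.29, 11.90 and 12.43 at 0.68 (-1.20, SE 0.23, adjusted p = 0.0109). The spread of OLE1 at 0.95 covered more than 1 log2 unit, and still its highest array there was below the lowest at 0.68. ECM22, an activator of sterol synthesis genes, had 8.12, 7.999 and 7.94 at 0.95 and 8.73, 8.90 and 9.08 at 0.68 (-0.88, SE 0.10, adjusted p = 9.46e-04). OLE1 and ECM22 were the 2 of 54 measured lipid genes that passed (3.70%, against 4.99% of all genes). Without replicate 1 at 0.68 there were 4 higher and 4 lower. Of 60 cell wall genes 5 fell (8.33%) and none rose. Among the 5 were the yapsin proteases YPS1 (-1.03, adjusted p = 0.0294) and YPS3 (-0.85, adjusted p = 0.0291) and the mannoprotein TIR4 (-0.53, adjusted p = 0.00898). The wall count ran to 12 without replicate 1 at 0.68 (4 higher and 8 lower) and to 1 without replicate 2 or 3 at 0.68 or replicate 1 at 0.95. YPS1, YPS3 and TIR4 were kept in 2, 1 and 6 of the 6 fits.

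Other genes of the lists passed as well. NRG1, a repressor of glucose-repressed and filamentation genes, had 8.62, 8.39 and 8.48 at 0.95 and 9.17, 9.65 and 9.68 at 0.68 (-1.002, SE 0.14, adjusted p = 0.00263). PHD1, an activator of filamentous growth, rose by 0.64 (SE 0.08, adjusted p = 0.00134), with 10.65, 10.69 and 10.60 at 0.95 and 10.13, 10.03 and 9.84 at 0.68. MGA1, another gene of filamentous growth, fell by 0.60 (limma adjusted p = 0.005). Of 24 measured filamentous growth genes 2 rose and 2 fell (16.7%, against 4.99% of all genes), so they had no common direction. ATG41, an autophagy gene, had 11.78, 11.72 and 11.61 at 0.95 and 12.77, 12.60 and 12.74 at 0.68 (-0.999, adjusted p = 0.00134). None of NRG1, PHD1, MGA1 and ATG41 lost its call without any 1 of the 6 arrays.

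The catalytic partners of Gcn5 did not pass. ADA2, NGG1 and SGF29, which form its acetyltransferase module, differed by 0.07 to 0.21 on the log2 scale, and none passed. None of 18 other SAGA subunits passed, and 2 fell without replicate 1 at 0.68. SGF73, of the deubiquitinase module, had the smallest p among them and missed the test (-0.24, adjusted p = 0.173). No histone gene of 10 passed either, with HTB2 nearest (0.22, adjusted p = 0.183), and 2 rose without that array. SIR2, the silencing deacetylase, was the 1 of 18 deacetylase genes that passed, a share of 5.56% against 4.99% of all genes. It rose, with 9.85, 9.64 and 9.62 at 0.95 and 9.44, 9.31 and 9.13 at 0.68 (0.41, adjusted p = 0.0186). No deacetylase gene passed without replicate 1 at 0.95 or without replicate 3 at 0.68. The median half-width of the 95% interval of a difference, not adjusted for the number of genes, was 0.267 on the log2 scale. No member passed among 25 peroxide defence, 16 tricarboxylic acid cycle, 39 respiratory, 36 proteasome, 28 phosphate and 32 pheromone response genes. Among these, only the peroxide defence and proteasome lists stayed at no calls when each of the 6 arrays was left out.

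Mating type markers fitted alpha cells at both strengths. The mean signal of 5 alpha-specific genes was 11.62, 11.81 and 11.78 at 0.95 and 11.90, 11.77 and 11.77 at 0.68. That of 9 a-specific genes was 7.80, 7.51 and 7.42 at 0.95 and 7.46, 7.71 and 7.50 at 0.68. The alpha pheromone gene MF(ALPHA)1 was at 14.46, 14.46 and 14.45 at 0.95 and at 14.47, 14.49 and 14.46 at 0.68. SAG1, the alpha agglutinin, had 11.79, 12.34 and 12.32 at 0.95 and 12.38, 12.06 and 12.17 at 0.68. Neither these nor MF(ALPHA)2 and STE3 passed the test. Of 9 a-specific genes 1, AXL1, fell (-0.45, adjusted p = 0.00402), a protease gene that haploid cells of both types express. SPS1, a marker of sporulating diploids, differed by -0.75 (limma adjusted p = 0.00695). Its call was kept when any of the 6 arrays was left out. Against wild-type, SPS1 differed by -1.07 at 0.95. Of 62 measured meiosis and sporulation genes 1 rose and 1 fell (3.23%, against 4.99% of all genes). Of 12 markers of cells past the diauxic shift or in stationary phase, HXT5 was the only one that passed. SIP18, another of them, had 11.51, 11.32 and 11.19 at 0.95 and 9.02, 11.46 and 10.54 at 0.68 (0.996, adjusted p = 0.366), and SPG4 had 9.83, 9.43 and 8.98 at 0.95 and 7.95, 9.23 and 8.16 at 0.68 (0.97, adjusted p = 0.122). Replicate 1 was the lowest array at 0.68 in both, and the part of culture stage in the other results was not tested. SIP18 and SPG4 do not stand for the remaining markers, whose values are not given. Of 19 measured gluconeogenesis and glyoxylate cycle genes none passed, with a median of 0.03 and differences from -0.43 to 0.36.

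Set against wild-type, with which both strengths were compared in the same fit, the place of the step depended on the arrays. At 0.95, 680 genes differed from wild-type (12.5%), and at 0.68, 675 (12.4%). Those comparisons share the wild-type arrays. Of the 272 genes of the step, 117 (43.0%) lay nearer to wild-type at 0.95 than at 0.68 and 155 lay farther, against 53.2% nearer among all genes. Without replicate 1 at 0.68, 649 of 898 (72.3%) lay nearer, and without replicate 3, 17 of 79 (21.5%). The direction of the majority among the called genes thus turned with 1 array. The share of 53.2% among all genes was taken with all arrays. Leaving out an array at 0.68 changes the mean at 0.68 of every gene, and the share among all genes was not taken again. The values of 72.3% and 21.5% therefore cannot be read as particular to the genes of the step. By the test against wild-type, 97 of the 272 passed at 0.95 only, 72 at 0.68 only, 16 at both and 87 at neither. The 272 were chosen by a difference between the same arrays at 0.95 and 0.68, so a pass at 1 strength only is partly built in.

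Each kind had clear examples. ADH5 had a mean of 10.29 in wild-type and 10.22 at 0.32, between the 2 higher strengths, and differed from wild-type by -1.12 at 0.95 (adjusted p = 0.0066) and by 0.70 at 0.68 (adjusted p = 0.0605). POL1, the catalytic subunit of DNA polymerase alpha, was near the wild-type mean of 11.12 at 0.95 (11.21, 11.08 and 11.21) and below it at 0.68 (10.72, 10.50 and 10.31), and the step was 0.66 (adjusted p = 0.00436). TIS11 and BAP3 likewise had wild-type means (7.25 and 5.35) close to those at 0.95. NCE103 stood at 11.82 in wild-type, 11.86 at 0.32 and 12.09 at 0.68, and only at 0.95, with 13.06, did it differ from wild-type (1.24, adjusted p = 1.48e-04). Its difference from wild-type at 0.68 was 0.27 (adjusted p = 0.204).

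Means were in strict order over wild-type, 0.32, 0.68 and 0.95 in 20 of the 272 genes (7.35%), against 12.1% of all genes. The 8 that increased included GCN5, HXT5, NCE103 and AHA1, a cochaperone of Hsp90, which was at 9.20, 9.42, 9.75 and 10.05 in that order. The 12 that decreased included MAL31, ZRT1, OLE1, GSY1 and TIR4. As a description, across the 5449 genes the step had a Pearson's r of -0.300 with the difference between gcn5 null and wild-type, a comparison that shares no array with it, and -0.370 without replicate 1 at 0.68. Of the 272 genes, 192 (70.6%) had the opposite sign in the null strain, against 62.8% of all genes. No r is given without replicate 3 at 0.68, the array of another strain most like each gcn5 null array. With the difference between 0.32 and wild-type, which also shares no array with the step, r was 0.249, and 0.111 without replicate 1 at 0.68. There 92 of the 272 (33.8%) had the opposite sign, against 42.5% of all genes.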

How the data were processed

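RNA of the 15 cultures was measured on Affymetrix Yeast 2.0 arrays. The authors deposited log2 signals made by RMA (background-corrected, quantile normalized across the whole array, 1 summary for each probe set), and these values were used as deposited. Software versions of that step are not given in the sources used here. Of 10928 probe sets, 5498 name 1 S. cerevisiae gene, which gave 5449 genes with the brightest probe set of each (47 genes had several). 1746 probe sets are for S. pombe.

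A mean for each of 5 strains was fitted to all 15 arrays with limma 3.58.1 in R 4.3.3 (lmFit, contrasts.fit and eBayes), with p-values adjusted by Benjamini and Hochberg over 5449 genes and a two-sided threshold of 0.05. Precision is set by 3 arrays a strain. The fit was also run on simulated data with planted changes, drawn with the same spread in every strain. In the real arrays the mean SD per gene was 0.229 at 0.68 and 0.096 in gcn5 null. That run therefore does not test the shared spread. The genes named were drawn from GCN5, the 10 largest non-overlapping rises and falls above 5.18, up to 3 called members of each list (the smallest p where none was called) and cell type markers. Others are marked where they stand. The members and the 45 lists were chosen with earlier results of these data known. Replicate numbers did not pair the arrays. Alternatives covered probe sets, dim genes, normalization, variance model, weights, arrays used and thresholds.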

Additional observations from a re-analysis of the deposited data

Results flagged for a closer look

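A signal appeared in probe sets outside the main measurement. Of 3517 probe sets that carry no gene name in the array table used here, with 166 array control probe sets left out, 23 passed the test of 0.95 against 0.68 (0.654%, limma on all probe sets of the array), 4 of them higher at 0.95. Of 1746 S. pombe probe sets, which serve as the level with no target, 0 passed. In the same fit 192 of 5498 S. cerevisiae probe sets passed (3.49%). The identity of the 23 is unknown here.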

How the results depend on the processing

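The count of 272 genes depended on the arrays and on how their spread was estimated. Leaving out 1 array at a time gave 79 to 898 genes, 16 to 77 over 2-fold (36 with all arrays), 34 to 297 in the gene lists (107) and 17 to 649 nearer to wild-type at 0.95 (117). The extremes came from leaving out replicate 3 and replicate 1 at 0.68. Leaving out replicate 2 at 0.68 gave 162 genes, and replicates 1, 2 or 3 at 0.95 gave 104, 104 and 115. The number nearer to wild-type was 75 without replicate 2 of wild-type and 70 without replicate 2 of gcn5 null. Of the 272 genes, 69 passed without any 1 of the 15 arrays, and 110 passed in only 1 of the 6 fits without an array of the 2 strengths. In the same order (genes, over 2-fold, in lists, nearer to wild-type), array weights gave 831, 60, 278 and 542, and a limma test against a fold of 1.2 gave 27, 19, 16 and 5. Strain weights gave 130 genes, 65 in lists and 52 nearer to wild-type, 12 arrays without gcn5 null gave 103, 45 and 35, and unadjusted p gave 1090, 313 and 541. With all probe sets tested, 76 were nearer to wild-type. Fitted to the 6 arrays alone, limma called 0 genes, 0 over 2-fold and 0 in lists, with 707 genes at an unadjusted p under 0.05, and GCN5 (1.23) missed the threshold. Median centring and quantile normalization over S. cerevisiae probe sets gave 237 and 243 genes, with 97 and 100 higher. The fit with a replicate block gave 208 genes, though the numbers do not pair the arrays (r of deviations -0.43, -0.09 and 0.37). After seeing the data, 2 settings were added. The 6 arrays less replicate 1 at 0.68 gave 384 genes, 66 over 2-fold and 164 in lists. Without replicate 1 at 0.95 and replicate 2 at 0.68 there were 36, 15, 18 and 8. Of the 6 arrays compared, those 2 had the lowest difference between 5′ and 3′ probe sets of control genes. Without both of those arrays 0 sulfate assimilation, 0 ribosome biogenesis, 1 iron and copper and 2 amino acid biosynthesis genes passed. No called gene named here changed direction in any setting.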

Other observations

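A group of genes not covered by the lists above was noticed among the rises, and 2 lists were written after the calls had been seen, so that their counts are a description and support nothing. Of 61 genes of DNA replication 15 rose and none fell, with a median of 0.27, and of 17 genes of sister chromatid cohesion 5 rose and none fell, with a median of 0.29. Those shares were 24.6% and 29.4%, against 4.99% of all genes. MCD1, the kleisin subunit of cohesin, had 10.36, 10.32 and 10.41 at 0.95 and 9.76, 9.76 and 9.66 at 0.68 (0.63, SE 0.11, adjusted p = 0.00592, limma). PDS5, a cohesin maintenance factor, had 11.28, 11.24 and 11.20 at 0.95 and 10.72, 10.70 and 10.36 at 0.68 (0.65, adjusted p = 0.00436). CTF18, of the clamp loader used in cohesion, had 8.42, 8.26 and 8.34 at 0.95 and 7.82, 7.72 and 7.56 at 0.68 (0.64, adjusted p = 0.00263). RFA1, the large subunit of replication protein A, differed by 0.50 (adjusted p = 0.0066).

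In these genes replicate 1 at 0.68 stood with its own replicates. The mean of the replication list was 9.48, 9.41 and 9.42 at 0.95 and 9.25, 9.15 and 9.08 at 0.68, with no overlap, and 4 to 23 members passed when each of the 6 arrays was left out. Without both replicate 1 at 0.95 and replicate 2 at 0.68, 1 passed. The gcn5 null arrays had means of 9.10, 9.15 and 9.12 and the wild-type arrays 9.43, 9.37 and 9.30.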
